A study of Mus musculus with 8 samples.

Results

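The guanylate-binding proteins (GBPs) of the mouse were described here as the 8 genes Gbp2, Gbp3, Gbp4, Gbp5, Gbp6, Gbp7, Gbp8 and Gbp9, taken by name from the 55376 genes of the count table. RNA-seq read counts were available for dendritic cells grown from mouse bone marrow (BMDCs) and kept overnight with heat-inactivated Prevotella melaninogenica (PM, 3 samples) or Prevotella heparinolytica (PH, 3 samples). The study is about the microbiome and checkpoint blockade in multiple myeloma, and the comparison asks how the response of the cells to 1 bacterium differs from that to the other. There were no untreated cells, so every difference is between the bacteria. The labels give neither the strain nor the sex or age of the mice. Samples carry the ids 1, 3 and 4 in both treatments, and the labels do not say whether an id is an animal or a culture, so a p-value here weighs a difference against a spread that may be technical in part.

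GBPs are large GTPases of the dynamin superfamily. They are made at high level in cells that receive interferon, above all interferon gamma, through JAK and STAT signalling and the transcription factor IRF1. The proteins assemble on the vacuoles of intracellular pathogens and on bacteria in the cytosol, together with the smaller immunity-related GTPases (IRGs), and they help to expose microbial lipopolysaccharide and DNA to the caspase-11 and AIM2 inflammasomes. Some family members carry a C-terminal lipid anchor, added to a cysteine by prenylation, that holds them on membranes.

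In cells kept with PM, the summed level of the Gbp genes of chromosome 3 was 50.2% of that with PH, and that of chromosome 5 was 61.1%. All 8 genes had enough reads to be tested, and 7 of them fell with PM (edgeR's quasi-likelihood test, Benjamini-Hochberg adjusted p under 0.05 over 14382 genes), with none higher. Over all tested genes, 1.64% fell by the same rule. The median log2 fold change of the 8 genes was -0.98, against 0.01 for all tested genes. The gene that did not pass was Gbp8, which is part of the chromosome 5 sum and stood at 78.2% of its PH level. The other chromosome 5 members stood at 32.2% (Gbp6), 51.7% (Gbp9) and 58.0% (Gbp4) of theirs. In bulk samples, fewer cells of a type and less RNA per cell cannot be told apart. Gbp transcripts took 0.0341%, 0.0424% and 0.0411% of all reads in PM samples 1, 3 and 4, against 0.0746%, 0.0786% and 0.0737% in PH samples 1, 3 and 4, and the groups did not overlap.

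Totals ranged from 21192990 to 38231719 counts in PM and from 11624367 to 40233148 in PH. The shallowest sample, PH 3, also had the highest level of the predicted gene Gm42418, 4029 CPM (read counts scaled to the TMM-adjusted total of a sample), against 878 to 1496 CPM in the other 5 samples. Among the PH samples it gave the highest CPM of Gbp3, Gbp4, Gbp5, Gbp8 and Gbp9 and the lowest of Gbp6 and Gbp7. Markers of dendritic cells were high in both groups, with a summed level of 9533 to 11472 CPM in PM and 9709 to 11882 CPM in PH, and 0 of 11 tested markers passed by edgeR (2 at an unadjusted p under 0.05, 1 by DESeq2's Wald test). With the sample id as a block, Irf4 fell (-0.28, edgeR adjusted p = 5.8e-05) and Clec9a rose (1.29, 0.00412). Xcr1, a marker of cross-presenting dendritic cells, was too low to test.

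The members lie in a pair of clusters, by the deposited coordinates on the GRCm38 build. On the plus strand of chromosome 3 stand Gbp5 (chr3:142496900-142522344), Gbp7 (chr3:142530342-142550149), Gbp3 (chr3:142560052-142573209) and Gbp2 (chr3:142620602-142638008). On the minus strand of chromosome 5 stand Gbp8 (chr5:105014153-105139540), Gbp9 (chr5:105077630-105139539), Gbp4 (chr5:105115767-105139586) and Gbp6 (chr5:105272411-105293696). Each is a protein-coding gene in GENCODE. The chromosome 5 genes are close copies of each other, with 90.2% to 92.9% of aligned coding bases identical over the 6 pairs. On chromosome 3 the 6 pairs shared 64.4% to 78.5% of aligned bases, and the 16 pairs across the clusters 62.9% to 75.3%.

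All members carry the P-loop of a GTPase, the stretch that grips the phosphates of the nucleotide. The coding bases of its 8 codons are shown because they show which members share them and which do not. Capitals mark the last 3 codons, for glycine, lysine and serine.
Gbp2: ggcctctaccgcacaGGCAAATCC
Gbp5: ggtctttatcgcacaGGCAAATCC
Gbp3: ggtttatatcgtacaGGGAAGTCC
Gbp7: ggactataccgtacgGGAAAATCC
Gbp4: ggatggtcccatacaGGGAAGTCC
Gbp6, Gbp8 and Gbp9: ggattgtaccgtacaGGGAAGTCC
Gbp6, Gbp8 and Gbp9 had the same bases throughout, whereas Gbp4 and each chromosome 3 member had their own.

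The C-terminal end shows which members carry a prenylation signal. The last 30 coding bases, stop codon included, are given for the chromosome 3 members, with a cysteine codon at the 4th position before the stop in capitals where there is one.
Gbp2: aaatcgtctgggaagTGCactatactctga
Gbp5: agacatcatcatgacTGTgttataagctaa
Gbp3: ctgaaattcctcggctcactaagtagttag
Gbp7: cagaattcagacaaagttagaaaactctaa
Gbp2 and Gbp5 had the cysteine codon in that place, and Gbp3, Gbp7 and the 4 chromosome 5 members did not. The coding sequence used for Gbp8 was the shortest, with 525 codons before the stop, against 589 to 638 in the others.

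The likeness of the copies limits how well reads can be assigned to one gene. For each member the transcript with the longest coding sequence was used, so the shares below do not cover every counted exon. Overlapping genes other than Gbp genes were left out of the search. Of the 100-base stretches of the Gbp6 transcript, 46.7% also occur in transcripts of another gene, mostly Gbp10, which is 98.4% identical to Gbp6 in its coding sequence. That share was 6.0% for Gbp8, 3.31% for Gbp9, 2.88% for Gbp4, 1.00% for Gbp7 and 0.949% for Gbp3, and it was 0% for Gbp2 and Gbp5. The read length is not stated in the labels, and at 50 bases the shares were higher. They were then 70.3% for Gbp6, 28.6% for Gbp8, 14.6% for Gbp9 and 12.8% for Gbp4, with 5.19% for Gbp7, 4.88% for Gbp3, 2.07% for Gbp2 and 0.234% for Gbp5. Gbp6 also overlaps the predicted gene Gm43302 over 66.3% of its exon bases on the same strand, and Gm43302 had 0 reads in all 6 samples. Gbp7 overlaps Gm43802 over 11.3% of its exon bases on the same strand, and Gm43802 was also given 0 reads in all samples. How reads over 2 genes were counted is not stated. These values of 0 therefore do not show that no reads fell in the overlaps. The levels of Gbp6, and to a lesser degree of Gbp8, Gbp9 and Gbp4, are therefore uncertain, while Gbp2 and Gbp5 shared the least at both lengths. Gbp2 overlaps the microRNA gene Mir6381 on the opposite strand over 24 bases.

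Levels of different genes were compared as TPM, a share of all transcripts that divides the reads of a gene by its exon length. Gbp2 was the most abundant member, with a mean of 241 TPM over the 6 samples, 150 to 167 TPM in PM and 308 to 336 TPM in PH. Gbp5 followed with a mean of 137 TPM, then Gbp3 with 35.3, Gbp8 with 15.4, Gbp7 with 7.50, Gbp4 with 5.96, Gbp9 with 4.18 and Gbp6 with 3.40 TPM. Both genes with a prenylation signal thus stood at the top of the order, and the order was the same in PM and in PH. Gbp7 and Gbp4 were not separated in PM, with 3.47 to 4.90 TPM and 3.70 to 4.72 TPM. Gbp9 and Gbp6 were not separated in PH, with 5.09 to 5.96 TPM and 4.79 to 5.49 TPM. At the deposited exon lengths, every other pair of neighbours in the order was separated in both groups. This weighs the spread of samples only. It does not cover the choice of exon length or the uncertain levels of Gbp6, Gbp8, Gbp9 and Gbp4.

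**Figure D1:**
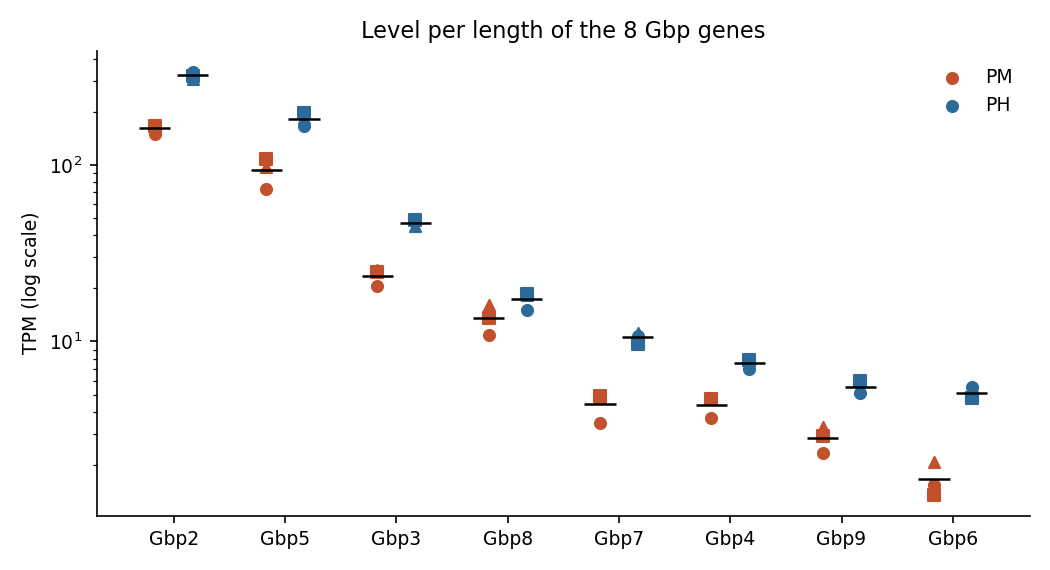
Level of the 8 Gbp genes in TPM on a log axis, PM samples left of PH samples for each gene, with circles, squares and triangles for sample ids 1, 3 and 4 and a bar at the group mean. Gbp2 and Gbp5 stand highest, Gbp6 lowest, and the PM and PH points of Gbp8 alone overlap.

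Gbp2, a prenylated GBP that coats pathogen vacuoles and is needed in mice to control Toxoplasma, fell to about the same level in each PM sample. It had 176, 189 and 186 CPM in PM samples 1, 3 and 4, against 388, 367 and 346 CPM in PH samples 1, 3 and 4. All PM samples lay far below all PH samples, and the spread within a treatment was small. The means were 184 ± 6.99 CPM in PM and 367 ± 21.1 CPM in PH (SD, n = 3 each), a log2 fold change of -1.0 ± 0.07 (SE; edgeR adjusted p = 3.3e-04). By its p, Gbp2 ranked 8 among the 14382 genes.

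Gbp5, the other prenylated member, promotes inflammasome activation in mouse macrophages. It had 104, 149 and 134 CPM in PM samples 1, 3 and 4, and 231, 273 and 249 CPM in PH samples 1, 3 and 4. PM 1 was the lowest sample, and every PM value was below every PH value. The means were 129 ± 22.9 CPM in PM and 251 ± 21.1 CPM in PH (SD, n = 3 each), and the log2 fold change was -0.96 ± 0.13 (edgeR adjusted p = 0.00584). PM 1 and PH 1 were each the lowest of their treatment, as the plot of levels by sample shows.

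Gbp3 and Gbp7 share the chromosome 3 cluster without a prenylation signal. The mouse Gbp3 and Gbp7 proteins are known to gather at Toxoplasma vacuoles in cells treated with interferon gamma. Gbp3 had 29.2, 33.8 and 34.8 CPM in PM samples 1, 3 and 4, against 67.2, 67.6 and 61.2 CPM in PH samples 1, 3 and 4. It averaged 32.6 ± 2.97 CPM in PM and 65.3 ± 3.62 CPM in PH (SD, n = 3 each), a log2 fold change of -1.0 ± 0.08 (edgeR adjusted p = 7.1e-04). To the digits given, that is the log2 fold change of Gbp2. Gbp7 had 9.08, 12.4 and 12.3 CPM in PM samples 1, 3 and 4, against 27.9, 24.9 and 28.2 CPM in PH samples 1, 3 and 4. It averaged 11.2 ± 1.88 CPM in PM and 27 ± 1.83 CPM in PH (SD, n = 3 each), a log2 fold change of -1.26 ± 0.12 (edgeR adjusted p = 0.00144). Neither gene had overlapping groups.

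Gbp6 had the largest fold change of the 8 genes and the lowest level. It had 1.86, 1.6 and 2.41 CPM in PM samples 1, 3 and 4, against 6.57, 5.70 and 5.97 CPM in PH samples 1, 3 and 4. The PM samples lay at 32.2% of the PH mean and did not overlap the PH samples. The means were 1.96 ± 0.415 CPM in PM and 6.08 ± 0.445 CPM in PH (SD, n = 3 each), and the log2 fold change was -1.62 ± 0.18 (edgeR adjusted p = 0.00282). Its near-copy Gbp10 had 1, 0 and 4 reads in PM samples 1, 3 and 4 and 4, 2 and 7 reads in PH samples 1, 3 and 4, which was too few to test.

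Gbp9 and Gbp4 share their first exon with Gbp8, and the mouse Gbp9 protein is another that gathers at Toxoplasma vacuoles. Gbp9 had 4.83, 5.86 and 6.54 CPM in PM samples 1, 3 and 4, against 10.4, 12.1 and 10.8 CPM in PH samples 1, 3 and 4. It averaged 5.74 ± 0.865 CPM in PM and 11.1 ± 0.881 CPM in PH (SD, n = 3 each), a log2 fold change of -0.93 ± 0.13 (edgeR adjusted p = 0.00847). The groups were apart. Gbp4 had 7.83, 9.62 and 9.60 CPM in PM samples 1, 3 and 4, against 14.5, 16.2 and 15.9 CPM in PH samples 1, 3 and 4. It averaged 9.02 ± 1.02 CPM in PM and 15.5 ± 0.925 CPM in PH (SD, n = 3 each), a log2 fold change of -0.77 ± 0.11 (edgeR adjusted p = 0.00755). Without PH 4 neither gene passed by edgeR, with adjusted p = 0.0516 for Gbp9 and 0.0557 for Gbp4, and the log2 fold changes were then -0.95 and -0.75.

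Gbp8 was the member with the smallest difference. It had 12.5, 15.1 and 17.7 CPM in PM samples 1, 3 and 4, and 17, 20.8 and 20.1 CPM in PH samples 1, 3 and 4. PM 4 stood above PH 1, so the groups overlapped, although PM was below PH within each id. The means were 15.1 ± 2.58 CPM in PM and 19.3 ± 2.0 CPM in PH (SD, n = 3 each), a log2 fold change of -0.34 ± 0.13 (edgeR adjusted p = 0.311). With the sample id as a block the log2 fold change was -0.34 ± 0.08 and edgeR's adjusted p was 0.00243, so that all 8 genes fell in that fit, where 8.27% of all tested genes fell.

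**Figure D2:**
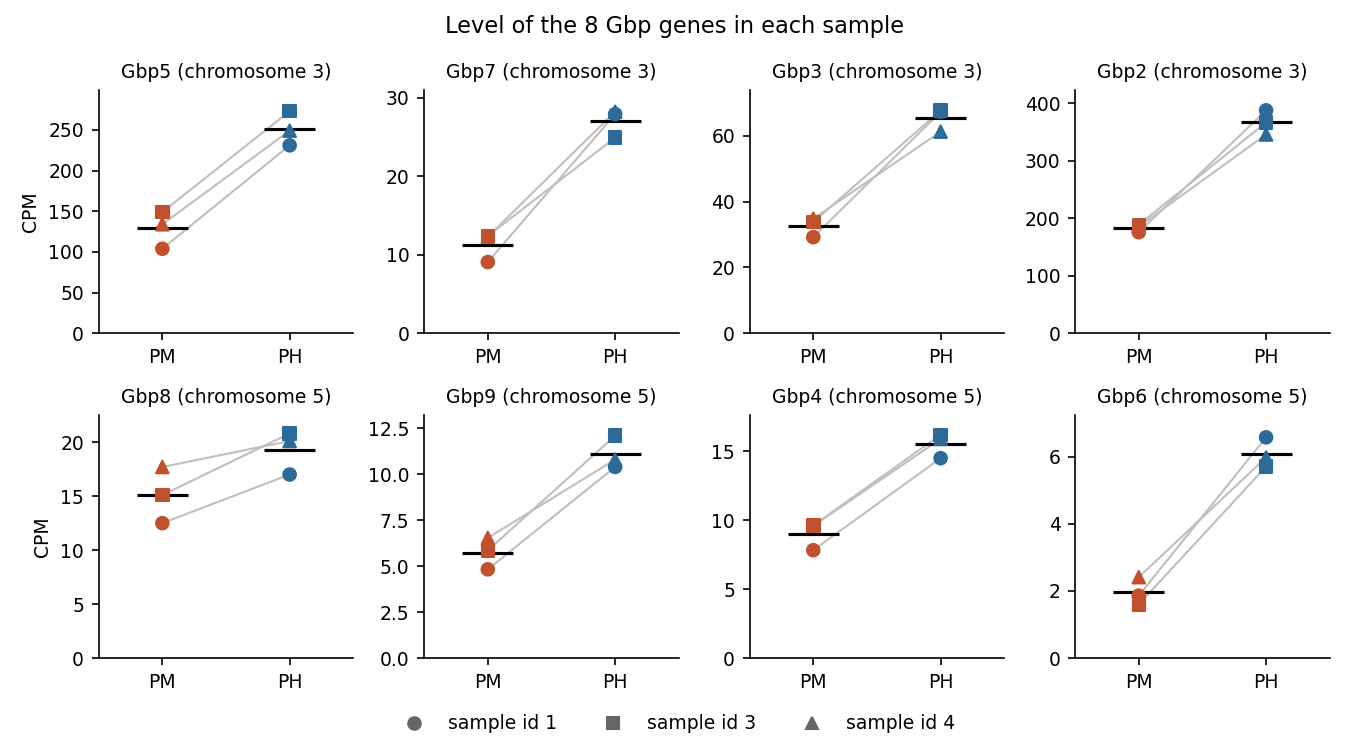
Level of each Gbp gene in CPM for the 3 PM samples, left, and the 3 PH samples, right, with samples of the same id joined by a line, and a bar at each group mean. In 7 panels all PM points lie below all PH points, and in the panel of Gbp8 the groups overlap.

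In 7 of the 8 genes every PM sample lay below every PH sample, as was so for 9.28% of all tested genes. Within ids, PM was below PH for all 8 genes in 3 of 3 ids. The difference was widest within id 1 for Gbp2, Gbp3, Gbp4, Gbp5, Gbp7 and Gbp9. For Gbp3, for instance, the log2 ratio of PM to PH was -1.20 within id 1, -1.0 within id 3 and -0.81 within id 4. The difference was smallest within id 4 for 6 genes, Gbp2, Gbp3, Gbp4, Gbp6, Gbp8 and Gbp9. For Gbp6 the ratios were -1.78, -1.79 and -1.28 within ids 1, 3 and 4. The column PM 1 matches libraries of a pair of sequencing runs by name, as does PH 3. Without both of these columns the same 7 genes passed by edgeR.

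**Figure D3:**
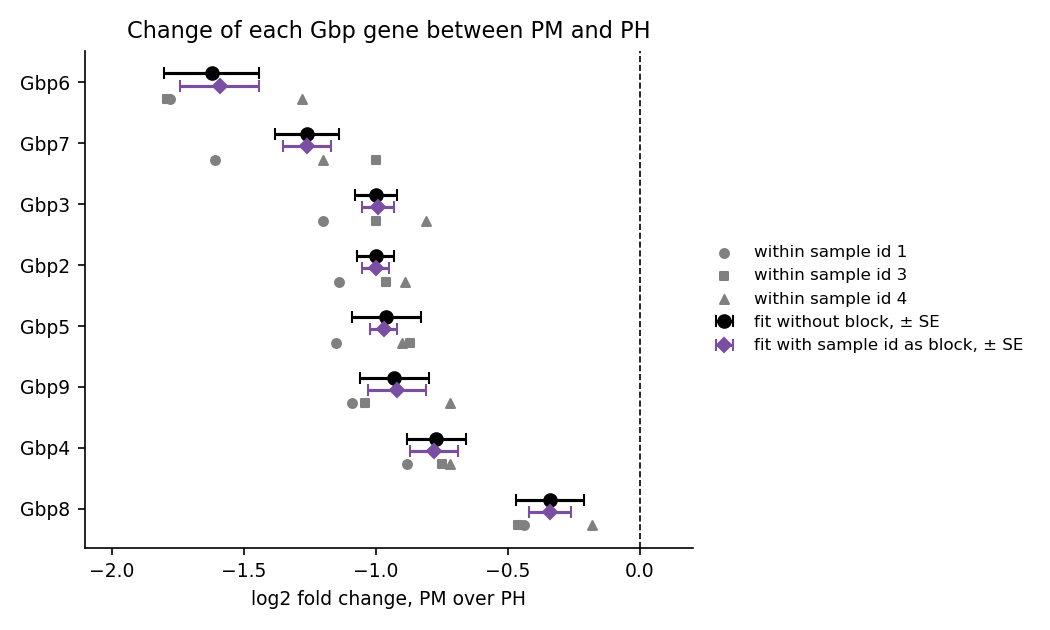
Log2 fold change of each Gbp gene, PM over PH, without the block (black circles) and with the sample id as a block (violet diamonds), with bars of 1 SE either side, and the ratios within ids 1, 3 and 4 (grey circles, squares and triangles). All values lie left of 0, from -1.62 for Gbp6 to -0.34 for Gbp8 without the block.

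Whether the members differed by the same amount was asked of their ratios. Ratios of the counts of 1 member to another within a sample, which do not depend on depth or scaling, were compared for all 28 pairs with a two-sided exact permutation test over the samples. With 3 samples against 3 the smallest p it allows is 0.100, which adjusted over the 28 pairs by the Benjamini-Hochberg method came to 0.147, so no pair could pass. The ratio of Gbp8 to Gbp2 was 0.0712, 0.0798 and 0.0949 in PM samples 1, 3 and 4, against 0.0439, 0.0567 and 0.0580 in PH samples 1, 3 and 4. The ratio of Gbp8 to each of the other 7 members was higher in PM, without overlap of the groups. The ratio of Gbp9 to Gbp8, close copies that share an exon, was 0.385, 0.389 and 0.370 in PM samples 1, 3 and 4, against 0.610, 0.581 and 0.540 in PH samples 1, 3 and 4. The ratio of Gbp6 to each of the other 7 members was lower in PM, again without overlap. The ratio of Gbp6 to Gbp2 was 0.0106, 0.00846 and 0.0130 in PM samples 1, 3 and 4, and 0.0169, 0.0155 and 0.0173 in PH samples 1, 3 and 4. The groups were also apart in pairs with neither Gbp6 nor Gbp8. The ratios of Gbp9 to Gbp4, Gbp7 to Gbp3 and Gbp7 to Gbp2 were lower in PM. Those of Gbp4 to Gbp7, Gbp3 and Gbp5 were higher in PM. Pairs that share a gene are not separate observations. The ratios of the remaining pairs, those among Gbp2, Gbp3 and Gbp5 included, overlapped between the treatments. For Gbp5 to Gbp2 the log2 ratio differed by 0.02 between PM and PH, and for Gbp3 to Gbp2 by -0.01. No sign of equal or unequal change can be read from these tests, and they do not use the pairing of the ids.

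Other Gbp genes were at the edge of detection. Gbp2b, which stands beside Gbp2 and also has the prenylation cysteine codon, had 6, 8 and 11 reads in PM samples 1, 3 and 4, against 9, 6 and 11 reads in PH samples 1, 3 and 4. Gbp11 had 2, 5 and 5 reads in PM and 5, 3 and 2 reads in PH samples 1, 3 and 4, and Gbp2-ps had 0 reads in all samples. None of these, nor Gbp10, passed the filter on low counts. A sum over all 6 Gbp genes of a chromosome takes out the splitting of counted reads between them. It does not bring back reads that were left uncounted. Summed in this way, the level of the chromosome 3 cluster was 357 ± 34.3 CPM in PM and 711 ± 24.5 CPM in PH (SD, n = 3 each). The log2 ratio of these means was -0.99. The chromosome 5 cluster, also of 6 genes, had 32.0 ± 4.65 CPM in PM and 52.4 ± 3.25 CPM in PH (SD, n = 3 each), a log2 ratio of -0.71. Gbp8 was the largest part of the chromosome 5 sum, with means of 15.1 CPM in PM and 19.3 CPM in PH. No test was made on the sums.

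Genes beside the clusters gave a local comparison. Within 200000 bases of the outermost Gbp genes, 8 other genes were tested and none passed by edgeR or by DESeq2's Wald test, while 2 had an unadjusted p under 0.05. On chromosome 3 the tested genes were Pdlim5 (log2 fold change -0.09), Kyat3 (0.13), Gtf2b (-0.10) and Pkn2 (-0.06). Kyat3 and Gtf2b lie on the far side of Gbp2. On chromosome 5 they were Zfp951 (-0.28), Abcg3 (-0.65, edgeR adjusted p = 0.180), Lrrc8b (-0.02) and Lrrc8c (-0.20). Lrrc8c, a subunit of a volume-regulated anion channel, had an edgeR adjusted p of 0.127 without the block and 0.00871 with it.

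**Figure D4:**
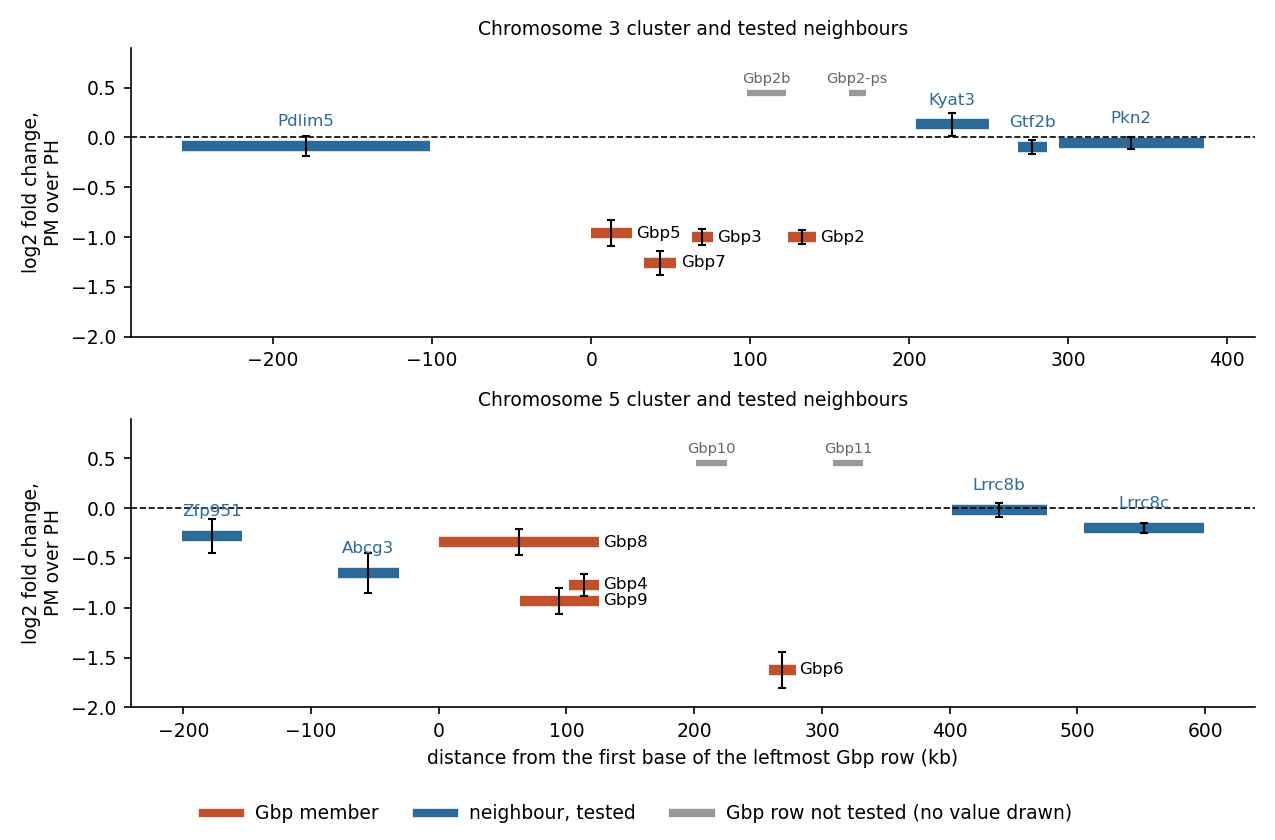
Log2 fold change, PM over PH, with bars of 1 SE either side, drawn at the place of each gene by distance in kilobases from the first base of the leftmost Gbp gene, for chromosome 3 (above) and chromosome 5 (below). The 4 members of the chromosome 3 cluster lie between -0.96 and -1.26, and the neighbours on that chromosome between -0.10 and 0.13.

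The promoters of the chromosome 3 members are shown because the chromosome 5 members had no promoter window. The windows are RefSeq's on the GRCm38.p6 build, and 4 of the 8 members, all on chromosome 3, matched an entry, with 5 windows. The 170 bases just before the start site are printed. Capitals mark matches to the core of the interferon-stimulated response element (ISRE), GAAANNGAAA on the minus strand and so TTTCNNTTTC as printed, and to the gamma-activated site (GAS), TTCNNNGAA.
Gbp2, chr3:142620493-142620662, plus strand: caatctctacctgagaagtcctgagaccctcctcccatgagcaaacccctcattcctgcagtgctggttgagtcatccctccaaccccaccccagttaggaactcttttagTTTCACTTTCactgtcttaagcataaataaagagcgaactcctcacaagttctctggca
Gbp3, chr3:142559874-142560043, plus strand: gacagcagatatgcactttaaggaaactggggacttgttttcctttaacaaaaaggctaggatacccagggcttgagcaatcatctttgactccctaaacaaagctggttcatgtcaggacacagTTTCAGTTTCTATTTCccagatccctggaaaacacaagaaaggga
Gbp5, chr3:142496764-142496933, plus strand: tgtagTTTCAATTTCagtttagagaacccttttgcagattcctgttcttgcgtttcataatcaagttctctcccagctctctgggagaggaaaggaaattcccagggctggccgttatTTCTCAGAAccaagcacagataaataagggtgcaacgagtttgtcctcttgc
Gbp7, chr3:142530166-142530335, plus strand: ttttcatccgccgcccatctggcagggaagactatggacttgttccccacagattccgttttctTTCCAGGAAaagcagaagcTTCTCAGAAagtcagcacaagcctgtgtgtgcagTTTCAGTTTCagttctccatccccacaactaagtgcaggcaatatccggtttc
The ISRE core, to which complexes of STATs with IRF9 and single IRFs bind, was found on the minus strand in 4 of the 5 windows. It ended 50 bases before the start site in Gbp2, 44 in Gbp7 and 156 in Gbp5. Gbp3 had a pair of overlapping matches, which ended 36 and 30 bases before the start site, and its other window had none. GAS matches, the site of STAT dimers, were found in Gbp7, ending 98 and 79 bases before the start site, and in Gbp5, ending 44 and 237 bases before it, the last outside the bases printed. Both strands of each 300-base window were searched. Of all 32841 windows in RefSeq's table, 3.44% held the ISRE core, 8.30% a GAS and 0.454% both. These matches describe the bases and do not show binding.

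Immunity-related GTPases are the smaller partners of GBPs on vacuoles, and their list also held Gvin1, a very large interferon-inducible GTPase of another family. Of 11 tested genes of the list, 9 fell and none rose by edgeR, and their median log2 fold change was -1.26. The largest drops were those of Gm4951 (-2.60 ± 0.38, edgeR adjusted p = 0.00895), Iigp1, an effector that breaks vacuoles (-2.18 ± 0.15, 3.3e-04), Gm12250, which RefSeq also names Irgb10 (-1.75 ± 0.14, 6.7e-04), and Tgtp2 (-1.74 ± 0.16, 9.7e-04). Gm4951 had few reads, with 0.334 ± 0.223 CPM in PM and 2.20 ± 0.369 CPM in PH (SD, n = 3 each). Iigp1 averaged 1.67 ± 0.230 CPM in PM and 7.65 ± 0.322 CPM in PH (SD, n = 3 each). Gm4951 did not pass without PH 4 (edgeR adjusted p = 0.0617), and Gvin1, also among the 9, did not pass when any 1 sample was left out. Tgtp1 (-0.93 ± 0.34, edgeR adjusted p = 0.268) and Irgc1 (1.22 ± 0.27, edgeR adjusted p = 0.0633) did not pass. With the block 10 fell and 1, Irgc1, rose. That fit called 2197 of all 14382 tested genes in either direction, and 8.27% fell. Tgtp1 and Tgtp2 are near-identical genes, so that their single values are uncertain.

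Interferons, cytokines that induce them and their receptors mostly did not pass. Of 13 tested, only Ebi3, a subunit of interleukin 27, fell by edgeR (-0.67 ± 0.08, adjusted p = 0.00354). It averaged 106 ± 5.91 CPM in PM and 169 ± 15 CPM in PH (SD, n = 3 each). The median log2 fold change of the list was -0.05. The interferon gamma receptor subunits had log2 fold changes of -0.05 (Ifngr1) and -0.02 (Ifngr2), and those of the type I receptor -0.04 each (Ifnar1 and Ifnar2). Transcripts of interferon gamma itself were rare. Ifng averaged 0.313 ± 0.160 CPM in PM and 0.852 ± 0.245 CPM in PH (SD, n = 3 each), with a log2 fold change of -1.30 ± 0.40 (edgeR adjusted p = 0.182, and 0.00753 with the block). Ifnb1, the interferon beta gene, was below the filter. The most abundant genes of the list that did not pass were Il12b, at 687 CPM in PM and 1025 CPM in PH, and Tnf, at 314 CPM in PM and 396 CPM in PH. With the block 6 of the 13 fell, Il12b and Tnf among them (edgeR adjusted p = 3.1e-09 and 8.0e-07), against 8.27% of all tested genes.

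Among the JAK, STAT and IRF genes and other regulators of interferon signalling, 5 of 19 fell and none rose by edgeR, with a median log2 fold change of -0.14. Among them were Irf7, a driver of type I interferon genes (-2.23 ± 0.17, adjusted p = 5.6e-04), Batf2 (-1.32 ± 0.20, 0.0108), Irf1 (-0.54 ± 0.09, 0.0190) and Irf9 (-0.53 ± 0.07, 0.00708). Irf7 averaged 6.62 ± 1.10 CPM in PM and 30.7 ± 6.26 CPM in PH (SD, n = 3 each). Jak2 (935 CPM in PM and 1031 CPM in PH) and Irf8 (574 CPM in PM and 631 CPM in PH) did not pass. Irf1 did not pass by edgeR without PM 4 (adjusted p = 0.106) or without PH 3 (0.0671), nor Batf2 without PM 4 (0.0522). The count was 9 without PM 1, 3 without PM 4 and 11 with the block, Jak2 and Irf8 among the last (edgeR adjusted p = 0.0421 and 0.0412). All 11 fell, and 8.27% of all tested genes fell in that fit.

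The next list held the ATG8 conjugation system, through which GBPs are guided to vacuoles, together with ubiquitin and ubiquitin-like factors. Of its 16 tested genes, 3 fell and none rose by edgeR, with a median log2 fold change of 0.02. Those that fell were Rnf213, a ubiquitin ligase that coats bacteria (-0.81 ± 0.10, adjusted p = 0.00376), Ube2l6, the conjugating enzyme of the ubiquitin-like ISG15 (-0.58 ± 0.11, 0.0377), and Trim21, an antibody receptor and ubiquitin ligase (-0.56 ± 0.08, 0.00806). Each of the 3 is itself an interferon-inducible gene. None of the autophagy genes of the list passed, and Sqstm1 and Gabarap, its most abundant, had log2 fold changes of 0.05 and 0.13. The call of Ube2l6 was lost without PM 4, PH 3 or PH 4 (edgeR adjusted p = 0.15, 0.119 and 0.131), and that of Trim21 without PH 4 (0.0557). With the block 4 fell and 5 rose, Gabarap among those that rose (edgeR adjusted p = 0.0473). Over all 14382 tested genes, that fit called 2197 in either direction, and 8.27% fell. Without PH 4 the count was 1.

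Among the inflammasome genes that act with GBPs, 2 of 14 tested fell and none rose by edgeR, with a median log2 fold change of -0.12. Zbp1, a sensor of nucleic acids that triggers cell death, fell most (-1.81 ± 0.08, adjusted p = 6.4e-05), and averaged 11.8 ± 0.214 CPM in PM and 41.1 ± 3.11 CPM in PH (SD, n = 3 each). Casp4, the mouse gene of caspase-11, fell by less (-0.49 ± 0.06, edgeR adjusted p = 0.00305), and averaged 56.5 ± 1.13 CPM in PM and 79.7 ± 3.15 CPM in PH (SD, n = 3 each). Il1b, at 1586 ± 479 CPM in PM and 2295 ± 589 CPM in PH, and Nlrp3, at 144 ± 41.0 CPM in PM and 174 ± 48.8 CPM in PH (SD, n = 3 each), varied widely between samples and did not pass. With the block 5 fell, Il1b and Nlrp3 among them (edgeR adjusted p = 4.2e-10 and 8.8e-05), and 1 rose. Of all tested genes, 8.27% fell in that fit.

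The enzymes that attach and trim prenyl groups gave 0 calls over 10 tested genes by edgeR or DESeq2, with or without the block, and 1 had an unadjusted p under 0.05 by edgeR without the block. Their median log2 fold change was 0.05. Icmt and Zmpste24, the most abundant of them, had log2 fold changes of 0.00 and -0.04. Of 12 tested genes of the wider dynamin superfamily, 1 fell, the antiviral GTPase Mx2 (-1.6 ± 0.21, edgeR adjusted p = 0.00559), and none rose. Atl3 (-0.21) and Dnm2 (-0.02), its most abundant genes, did not pass, and the median was -0.04. With the block 4 fell, Atl3 among them (edgeR adjusted p = 0.00185), against 8.27% of all tested genes.

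**Figure D5:**
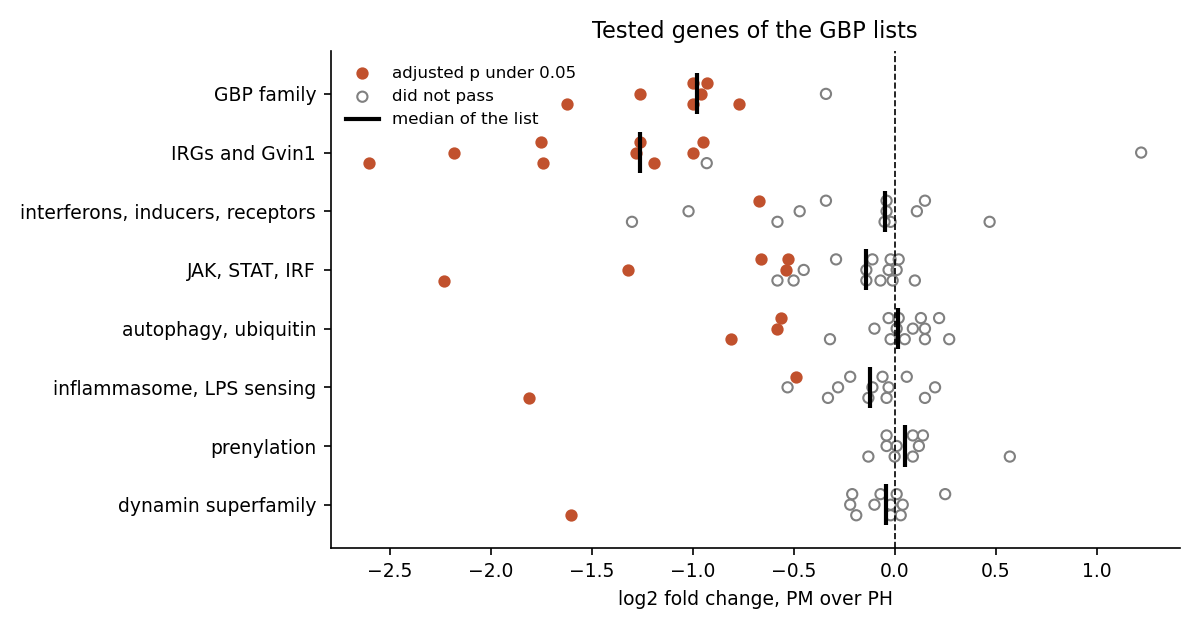
Log2 fold change, PM over PH, of each tested gene of the GBP list and of 7 lists of partner genes, filled where edgeR's adjusted p was under 0.05, with a bar at the median of each list. The medians of the GBP family (-0.98) and of the immunity-related GTPases (IRGs) with Gvin1 (-1.26) lie left of those of the other lists, which are between -0.14 and 0.05.

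Among the 10 genes whose levels over the 6 samples ran most like those of the members were Irf9 (Pearson r = 0.9974 with the mean standardised log2 CPM of the 8 genes), the proteasome activator subunit Psme1 (0.9938), Slamf1 (0.9932) and Irgm2 (0.9930). Cdk5r1, Pygb, Ifi35, Ifih1 and Trim21 were also among them, with r between 0.9898 and 0.9928. Of 8756 genes with a mean of at least 10 CPM, 151 had r of at least 0.95. The value describes 6 samples in 2 treatments, so it is set mostly by the difference between the treatments.

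Markers of other cells that could carry Gbp transcripts were at different levels in the groups for some types. Monocyte markers summed to 135 to 198 CPM in PM and 208 to 276 CPM in PH, and 1 of 5, Cx3cr1, fell by edgeR (-0.78 ± 0.15, adjusted p = 0.0356). With the block 4 of 5 fell, Ly6c2 (-0.64, edgeR adjusted p = 7.5e-12), Ccr2 (-0.63, 3.2e-04) and Spn (-0.27, 0.00171) in addition. In the fit with the block, 8.27% of all tested genes fell. Natural killer cell markers summed to 12.6 to 15.4 CPM in PM and 21.0 to 25.8 CPM in PH, and 1 of 3 tested, Gzmb, fell (-0.85 ± 0.09, edgeR adjusted p = 0.00282). Gzma also fell with the block (-1.06, edgeR adjusted p = 5.3e-06). The defining receptors of that cell were near 0, with Ncr1 at 0.0663 CPM in PM and 0.0864 CPM in PH, and Klra8 at 0 reads in all PM samples and 1 read over the PH samples. Neutrophil markers summed to 368 to 512 CPM in PM and 481 to 596 CPM in PH, and 1 of 8, Csf3r, fell (-0.96 ± 0.09, edgeR adjusted p = 9.7e-04). With the block S100a8 (-0.32, edgeR adjusted p = 6.6e-06) and S100a9 (-0.31, 9.8e-06) fell too. Macrophage markers summed to 792 to 1077 CPM in PM and 689 to 969 CPM in PH. With the block Cd68 rose (0.44, edgeR adjusted p = 6.2e-09) and Fcgr1 fell (-0.84, 0.0489). Plasmacytoid dendritic cell markers summed to 39.9 to 42.0 CPM in PM and 47.1 to 50.0 CPM in PH, with 0 of 3 tested passing by edgeR, 1 at an unadjusted p under 0.05 and 1 by DESeq2. Tcf4 fell with the block (-0.26, edgeR adjusted p = 0.00125). The defining marker of that cell, Siglech, had 0 reads in PM and 1 read in PH. For T cells the sums were 21.4 to 33.3 CPM in PM and 23.1 to 35.3 CPM in PH (0 of 7 passing by edgeR), and for B cells 9.95 to 22.1 CPM in PM and 9.59 to 18.1 CPM in PH (0 of 5 passing). In both lists 0 genes had an unadjusted p under 0.05 and 0 passed by DESeq2. Stromal markers summed to 85.9 to 147 CPM in PM and 77.3 to 165 CPM in PH, and 1 of 6, Pdgfrb, fell (-0.70 ± 0.10, edgeR adjusted p = 0.00847). Without PH 4 edgeR's adjusted p was 0.170 for Cx3cr1 and 0.0624 for Pdgfrb. Cx3cr1 also did not pass without PM 3 (0.0881), PM 4 (0.0991) or PH 3 (0.0890). The part of these cells in the Gbp differences was not tested.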

How the data were processed

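RNA-seq counts of BMDCs kept with PM or PH were used. Per the labels' protocols, RNA from a column kit was made into strand-marking libraries of polyadenylated RNA. The tools were STAR 2.5.3a, Trimmomatic and featureCounts 1.6.4 on GRCm38, per the submitters' processing notes. Which annotation release and strand setting were used, and what was done with multi-mapping reads, is not stated in any source used here. The authors deposited whole-number read counts per gene, without normalization, in 6 columns. The columns of PM 1 and PH 3 match a library of each of 2 runs by name, and no source used here says if they hold 1 run or both. Each column was used as 1 sample, and no pair agreed within sampling noise (chi-square per degree of freedom of at least 4.63).

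Counts were tested with edgeR 4.0.16 in R 4.3.3 (TMM, filterByExpr with a minimum count of 10, robust glmQLFit and glmQLFTest, no covariate, Benjamini-Hochberg adjustment over 14382 genes, threshold 0.05), after it was tested on simulated data. SEs come from the F value. TPM was computed from the counts and the deposited exon lengths. Coding sequences are those of GENCODE M21 and promoters those of RefSeq, read with Python 3.11.15 and Biopython 1.88. Protein sequences were not used here, and coding bases were compared in their place.

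Members and lists were chosen with earlier results of these data known. Named were all members, other Gbp genes, neighbours, the 10 most alike genes, and in each list the called genes with the largest change (up to 4) and up to 2 others of highest level. Irf9, Ifng, Ifnb1, Ifngr1, Ifngr2, Ifnar1, Ifnar2, Xcr1 and marker genes were named outside this rule, after their values were seen. Some genes that the rule names are not reported here.

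The ids were checked for pairing with log2 CPM (prior count 2) after the mean of each treatment was subtracted. Samples of the same id correlated at 0.44, 0.32 and 0.24 for ids 1, 3 and 4, and those of different ids at -0.35 to 0.07. Subtracting the mean makes the values of a treatment cancel out for each gene, so negative correlations between different ids are partly forced. The check also rests on few ids and on the same counts as the fit, so it cannot show that the ids are true pairs. Same ids were treated as pairs in the fit with the block on this ground, from the counts and not from the labels. The main fit does not use the pairing. The fit with the block is given where it changes a call. Alternatives were DESeq2 1.42.0, other scalings and filters, the block, each sample left out, and the columns of a second run left out.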

Additional observations from a re-analysis of the deposited data

How the results depend on the processing

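The count of members that passed was 7 in every alternative without a block, apart from 5 without PH replicate 4, and 8 in each fit with a block, so that leaving out each sample gave 5 to 7. No member changed direction in its 17 alternatives. Log2 fold changes ran from -1.05 to -0.93 for Gbp2, from -1.10 to -0.90 for Gbp3, from -0.83 to -0.67 for Gbp4, from -1.08 to -0.77 for Gbp5, from -1.82 to -1.49 for Gbp6, from -1.38 to -1.13 for Gbp7, from -0.48 to -0.19 for Gbp8 and from -1.07 to -0.78 for Gbp9. With each sample left out, Gbp4 ran from -0.83 to -0.70 and Gbp9 from -1.04 to -0.83, and without PH replicate 4 neither passed. Gbp8 passed with the replicate block (-0.34), with the block in DESeq2 (-0.36, adjusted p = 0.0383), and with the block without id 1 (-0.30), id 3 (-0.30) and id 4 (-0.45). The pairing changed no other member's call.

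The count over all genes was 337, and it was 584 with DESeq2's Wald test, 846 without a filter on low counts, 2197 with the replicate block, 1227 with the block in DESeq2, and 2145, 1580 and 1529 with the block without id 1, 3 and 4. It was 629 without the columns of a second run and 142 to 417 with each sample left out. In the lists, the block gave 6 calls among interferons and receptors, 11 among JAK, STAT and IRF genes, 9 among autophagy and ubiquitin genes, 6 among inflammasome genes, 4 in the dynamin superfamily, and for markers 2 of dendritic cells, 3 of macrophages, 4 of monocytes, 3 of neutrophils, 1 of plasmacytoid dendritic cells and 2 of natural killer cells. With each sample left out the calls ran from 1 to 2 for interferons and receptors, 3 to 9 for JAK, STAT and IRF genes, 1 to 3 for autophagy and ubiquitin genes, 0 to 1 for macrophage, 0 to 2 for monocyte, 1 to 2 for natural killer cell and 0 to 1 for stromal markers. The causes were not tested. The summed chromosome 3 level had log2 ratios of -1.05 to -0.92 and that of chromosome 5 of -0.82 to -0.61 with each sample left out. The order of the members by TPM was the same by RPKM. Both divide the same counts by the same exon lengths, so the order within a sample has to agree. Other lengths were not tried. Gbp2b, Gbp10 and Gbp11 had too few reads to be tested at this depth.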
